A study of Mus musculus with 5 samples.

Results

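The genes described here are 33 transcripts that mark microglia, the resident macrophages of the brain, or that microglia share with other myeloid cells. They were chosen by name and not by a rule on measured values, out of 23420 gene symbols for which values were deposited. Earlier results of these data were known when they were chosen. Of the 33, 32 were found under the listed symbol and Spi1 under its older symbol Sfpi1. RNA of the mouse dentate gyrus (DG), the hippocampal subfield in which new neurons are born in adult life, was sequenced in 5 libraries. All mice were wild-type CD1 males, an outbred strain, aged 4 months by the labels, and all were housed for 4 weeks before the DG was dissected after perfusion with saline. The LD library came from mice kept singly with a locked disk, the CE (complex environment) library from mice with a locked disk, social housing and tunnels, and the RUN library from single mice with a running disk, each from pooled RNA of 8 mice. L-RUN and H-RUN were pools of the 4 lowest and the 4 highest runners among the same 8 RUN mice. The design compares voluntary running, by the distance run, and enrichment without running against a control with neither.

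Each group was thus a single library with no replicate, and no p-value can be given. The values are regularized log values (rlog) on the log2 scale, in which the authors' normalization shrinks a gene with few reads towards its own mean. A difference between 2 libraries is given on the same scale. Genes with a mean rlog value of at least 5 over the 5 libraries were called expressed, which 13550 genes were, and 32 of the 33 myeloid genes. The exception was Cd14, a co-receptor for bacterial lipopolysaccharide, with a mean of 4.82. The threshold for calling a gene changed was a difference of 0.3 or more, up or down. Since RUN held the RNA of the L-RUN and H-RUN mice, its departure from their mixture gave the technical SD of a difference, 0.0365 across expressed genes and between 0.0308 and 0.0473 for the 32, and a difference was also counted when it exceeded 3 technical SD. This SD holds the noise of libraries and sequencing but not the spread between mice. Depth per library is unknown, and 4588 symbols had the value 0 throughout. All 4 differences from LD share the single LD library.

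Microglia enter the brain early in embryonic life and renew themselves there under the control of the receptor CSF1R. They survey the tissue with receptors for nucleotides and for the neuronal chemokine fractalkine, tag synapses and debris with the complement component C1q, and digest what they engulf in lysosomes. In the DG they are known for clearing the many newborn neurons that die before they mature. The transcription factor PU.1, the product of Spi1, drives many genes of the lineage and binds the purine-rich PU box.

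The promoters of 23 of the 33 genes were given in RefSeq (GRCm38.p6) as a window from 250 bases before the transcription start to 50 bases after it. The letters of the PU box, GAGGAAGT on either strand, stood in 3 of these 23 windows (C1qc, Ctss and Cd53), against 3.69% of the windows of 27025 genes. Its core, GAGGAA on either strand, which every PU box contains, stood in 16 of 23 (69.6%), against 31.3% of genes. A match of letters is a description and not a binding site. Shown are the 250 bases upstream of the RefSeq start of the genes whose difference from LD exceeded 3 technical SD in every library and whose window is printed here, and of C1qc as one of the 3 genes with a PU box. Each is written 5′ to 3′ on the strand of its gene, with matches to the core in capitals. The windows lie at chr3:95526536-95526785 on the plus strand for Ctss, at chr4:130913066-130913315 on the plus strand for Laptm5, at chr3:59262986-59263235 on the minus strand for P2ry12 and at chr4:136892915-136893164 on the minus strand for C1qc.
Ctss: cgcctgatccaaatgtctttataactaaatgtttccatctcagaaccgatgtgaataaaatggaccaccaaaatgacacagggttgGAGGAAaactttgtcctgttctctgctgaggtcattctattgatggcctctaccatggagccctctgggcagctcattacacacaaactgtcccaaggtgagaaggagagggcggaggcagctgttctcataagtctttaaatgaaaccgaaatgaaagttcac
Laptm5: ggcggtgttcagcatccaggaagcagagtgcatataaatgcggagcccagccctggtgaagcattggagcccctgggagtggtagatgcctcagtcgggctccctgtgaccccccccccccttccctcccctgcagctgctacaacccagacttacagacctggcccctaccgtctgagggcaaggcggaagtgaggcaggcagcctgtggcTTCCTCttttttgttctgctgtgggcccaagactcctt
P2ry12: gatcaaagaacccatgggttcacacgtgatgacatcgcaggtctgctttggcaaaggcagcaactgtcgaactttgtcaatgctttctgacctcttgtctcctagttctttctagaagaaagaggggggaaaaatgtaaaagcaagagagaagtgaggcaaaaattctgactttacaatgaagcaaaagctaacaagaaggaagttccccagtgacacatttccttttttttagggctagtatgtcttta
C1qc: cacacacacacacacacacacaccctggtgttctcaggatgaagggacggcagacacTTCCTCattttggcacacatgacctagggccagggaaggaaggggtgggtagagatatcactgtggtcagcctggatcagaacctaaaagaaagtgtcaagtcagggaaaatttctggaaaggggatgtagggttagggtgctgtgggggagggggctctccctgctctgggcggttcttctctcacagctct
The windows are counted from the RefSeq start, whereas the gene positions are GENCODE M21 bounds, which begin upstream of the RefSeq start in Laptm5 and C1qc, so that these windows lie partly inside the GENCODE genes. The core began 164 bases before the RefSeq start in Ctss, 38 in Laptm5 and 193 in C1qc, where it is part of a PU box on the opposite strand. In the upstream part of P2ry12 these letters were not found. The PU box of Ctss lies across its start and outside the stretch shown.

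In none of the 6 comparisons did a myeloid gene reach the threshold of 0.3. The count was 0 of 33 for CE minus LD, where 0.598% of expressed genes reached it, and 0 of 33 for RUN minus LD (1.31%), L-RUN minus LD (3.13%) and H-RUN minus LD (0.827%). It was also 0 for H-RUN minus L-RUN (1.54%) and for CE minus RUN (0.834%). At shares this small, few or none of 33 genes would be called at the rate of all genes.

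Below that threshold, the myeloid genes were mostly highest in LD. The median difference of the 33 genes from LD was -0.06 in CE, -0.07 in RUN, -0.09 for L-RUN and -0.06 for H-RUN. The median over all expressed genes lay between -0.0018 and -0.0013 in the first 3 and at -0.0035 in H-RUN. Lower than in LD were 50.8% of all expressed genes in CE, 50.7% in RUN, 50.7% for L-RUN and 52% for H-RUN. Of the 32 expressed myeloid genes, 24 were lower in CE, 23 in RUN, 23 for L-RUN and 25 for H-RUN. In all 4 other libraries 17 were lower than in LD (53.1%), where 28.1% of expressed genes were, and 5 were higher in all 4 (15.6%), where 25.8% of expressed genes were. Since the 4 differences share LD, a high reading of a gene in that 1 library lowers all of them at once.

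**Figure D1:**
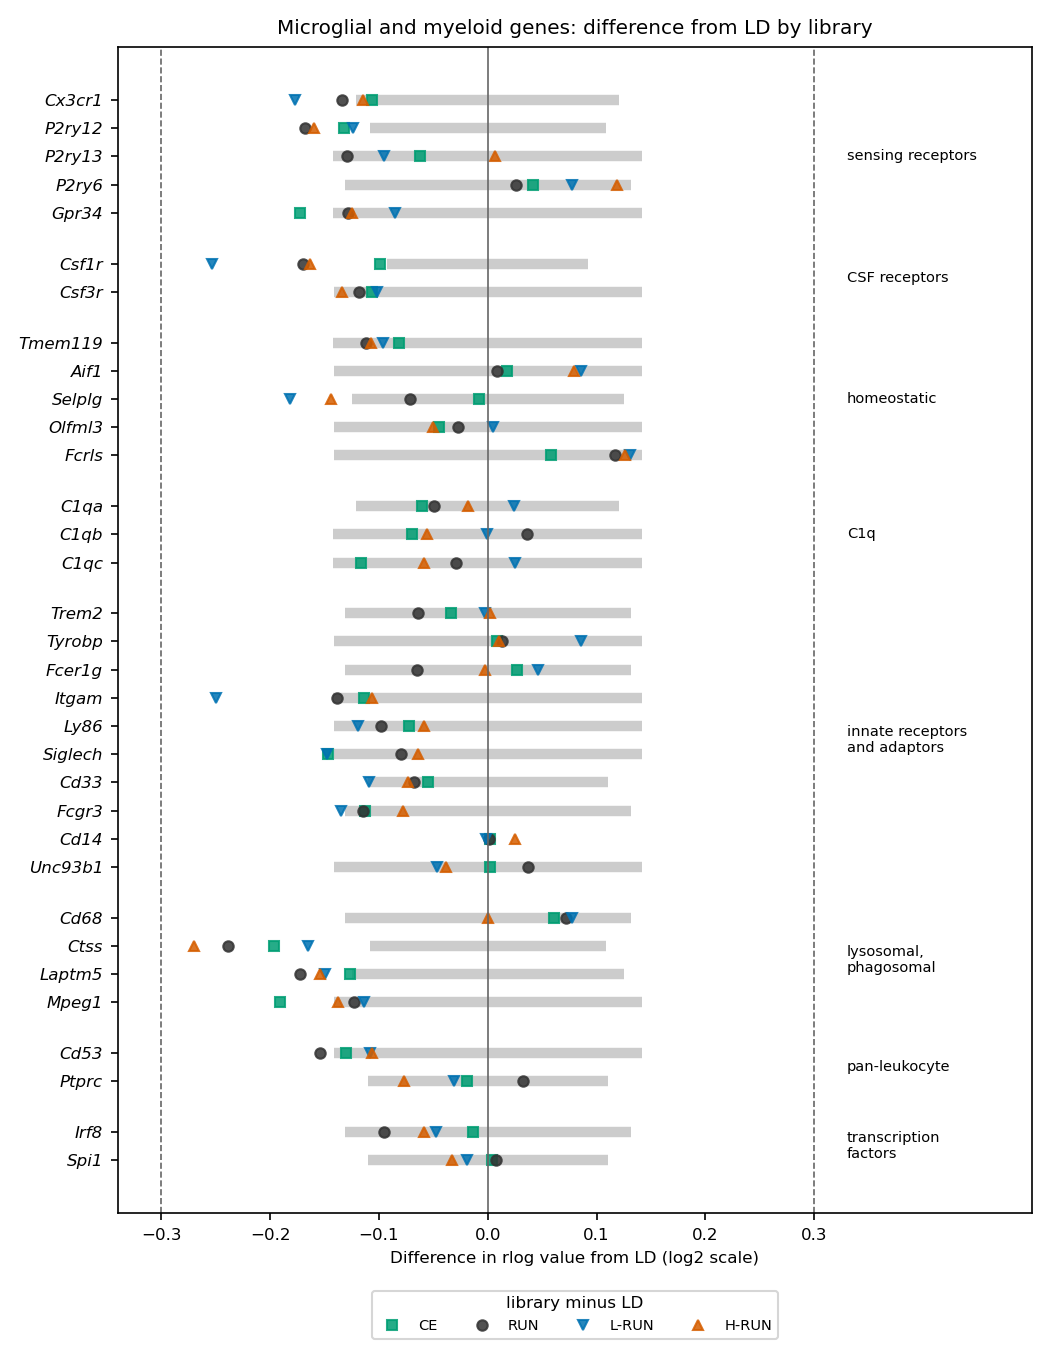
Difference of each of the 33 genes from LD (x axis, rlog value on the log2 scale) in CE, RUN, L-RUN and H-RUN, 1 library per symbol, with the genes ordered by role. Grey bars span 3 technical SD on either side of 0 for the 32 expressed genes and dashed lines stand at -0.3 and 0.3; no symbol reaches the dashed lines, and the symbols outside the grey bars all lie on the lower side.

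Measured against technical noise, 7 of the 32 genes were lower in CE by over 3 technical SD (13% of expressed genes were), 6 in RUN (14.4%), 9 for L-RUN (19.5%) and 5 for H-RUN (10.4%). These counts are shares of 21.9%, 18.8%, 28.1% and 15.6%. No myeloid gene was higher by over 3 technical SD in any of the 4, where 10.7% of expressed genes were in CE, 9.90% in RUN, 13.2% for L-RUN and 8.39% for H-RUN. Lower in all 4 by this measure were P2ry12, Csf1r, Ctss and Laptm5. The share of all expressed genes lower by it in all 4 was not counted, and the 4 differences share LD. In bulk RNA, fewer microglia and less of these transcripts per microglial cell cannot be told apart.

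Among the surveillance receptors, P2ry12 encodes the ADP receptor that steers microglial processes towards damage. It lies on chromosome 3 (59216272 to 59262871, GRCm38), beside P2ry13. P2ry12 had an rlog value of 10.38 in LD, 10.25 in CE, 10.21 in RUN, 10.26 for L-RUN and 10.22 for H-RUN. LD was the highest of the 5 and the other 4 lay between 10.21 and 10.26, so that the difference from LD was -0.13, -0.17, -0.12 and -0.16 in the same order (technical SD 0.0362). Cx3cr1, the fractalkine receptor on chromosome 9, read 10.27 in LD, 10.16 in CE, 10.13 in RUN, 10.09 for L-RUN and 10.15 for H-RUN. Its difference passed 3 technical SD in RUN (-0.13) and L-RUN (-0.18) and not in CE (-0.11) or H-RUN (-0.11). Gpr34, a receptor for lysophosphatidylserine, read 8.61 in LD and between 8.44 (CE) and 8.53 (L-RUN) in the others, and passed 3 technical SD in CE alone (-0.17). P2ry13, another ADP receptor, was lower than in LD in 3 libraries and close to it in H-RUN (8.51 in LD and 8.52 in H-RUN). P2ry6, a receptor for UDP that is known for triggering phagocytosis, went the other way, with 6.70 in LD and 6.73 to 6.82 in the others, all within 3 technical SD.

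Csf1r, the receptor for CSF1 and IL-34 on which microglial survival depends, lies on chromosome 18 (61100598 to 61132149). It read 10.95 in LD, 10.85 in CE, 10.78 in RUN, 10.70 for L-RUN and 10.79 for H-RUN. The lowest value stood in L-RUN, whose difference from LD was -0.25, a level 16.1% lower, against -0.10, -0.17 and -0.16 in CE, RUN and H-RUN (technical SD 0.0308). The library kit did not keep strand, and 15.1% of the exon bases of Csf1r are shared with Hmgxb3 on the opposite strand, whose reads could not be told apart there. Csf3r, the receptor for granulocyte colony-stimulating factor, was also lower in every library, with 7.81 in LD and 7.68 to 7.71 in the others, within 3 technical SD.

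The largest difference of all was that of the lysosomal gene Ctss. It encodes cathepsin S, a protease of the endolysosome that processes antigens, and lies on chromosome 3 (95526786 to 95556403). Per kilobase of transcript it was also the most abundant of the 33 genes in LD (10.19 on the rlog scale after subtraction of the log2 of the length in kilobases, against 9.69 for C1qa and 9.15 for P2ry12). Ctss read 10.62 in LD, 10.43 in CE, 10.39 in RUN, 10.46 for L-RUN and 10.35 for H-RUN. Its difference from LD was -0.20 in CE, -0.24 in RUN, -0.17 for L-RUN and -0.27 for H-RUN (technical SD 0.0362), or changes in level of -12.7%, -15.2%, -10.8% and -17.1%. Laptm5, a lysosomal membrane protein of haematopoietic cells on chromosome 4 (130913125 to 130936141), read 9.66 in LD, 9.53 in CE, 9.49 in RUN and 9.51 in both L-RUN and H-RUN. The 4 other libraries thus lay together below LD, by 0.13 to 0.17. Mpeg1, whose product perforin-2 forms pores in engulfed bacteria, read 8.12 in LD and 7.93 in CE, the single library in which it passed 3 technical SD (-0.19), with 7.98 to 8.002 in the running libraries. Cd68, the macrosialin of the same compartment, did not share this order. It read 6.97 in LD, 7.03 in CE, 7.04 in RUN, 7.04 for L-RUN and 6.97 for H-RUN, where it exceeded LD by 0.00013 only.

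Itgam encodes the CD11b chain of complement receptor 3 (chromosome 7, 128062640 to 128118491). It read 8.95 in LD, 8.84 in CE, 8.81 in RUN, 8.70 for L-RUN and 8.84 for H-RUN, so that L-RUN stood lowest (-0.25, technical SD 0.0473). Itgam was the single gene of the 32 that passed 3 technical SD between H-RUN and L-RUN, with a difference of 0.14, where 22.1% of expressed genes passed it in either direction. Of its exon bases, 68.7% lie under a second gene model on the same strand, Gm49368. Between CE and RUN none of the 32 passed 3 technical SD, against 18.0% of expressed genes. The largest differences there were those of C1qb (-0.11) and Fcer1g (0.09).

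**Figure D2:**
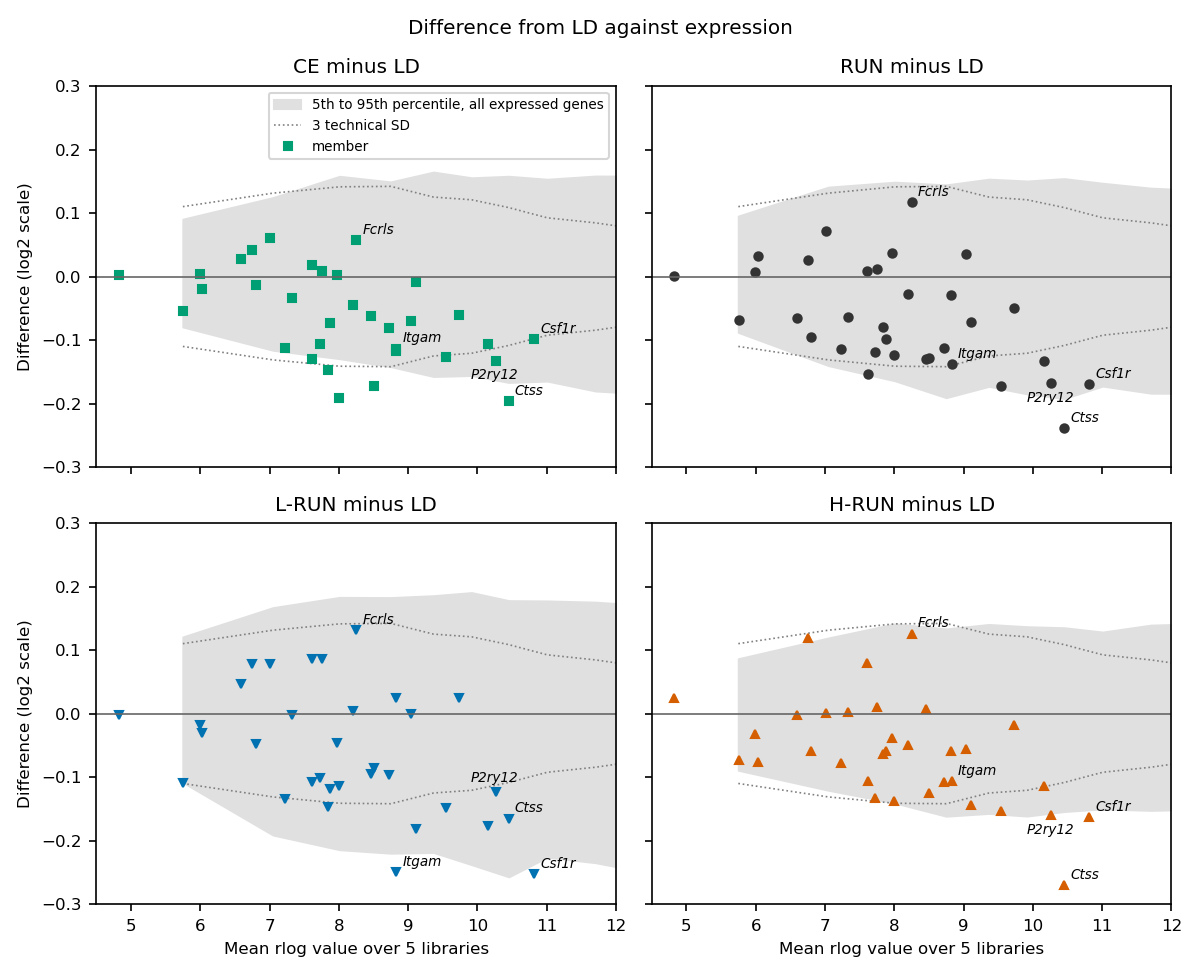
Difference of the 33 genes from LD (y axis, log2 scale) against their mean rlog value over the 5 libraries (x axis), 1 panel per library. The grey band spans the 5th to 95th percentile of all expressed genes and dotted lines mark 3 technical SD; genes of higher expression lie farther below 0, with Ctss at -0.20 in CE and -0.27 in H-RUN and Csf1r at -0.25 in L-RUN, and Fcrls lies above 0 in all 4 panels.

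Genes of higher expression differed more. Across the 32, the Spearman correlation of the mean rlog value with the mean difference from LD was -0.57, given as a description, against -0.12 across all expressed genes. The 12 genes with a mean of at least 8.5 had median differences of -0.11 in CE, -0.13 in RUN, -0.14 for L-RUN and -0.12 for H-RUN. For the other 20 the medians were -0.03, -0.06, -0.04 and -0.04. The rlog shrinks the differences of genes with few reads, and its part in this contrast was not tested.

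The chains of C1q, which starts the classical complement pathway, were among the abundant genes that stayed near LD. C1qa, C1qc and C1qb lie together on chromosome 4 between 136880129 and 136898803. C1qa read 9.75 in LD, 9.69 in CE, 9.70 in RUN, 9.77 for L-RUN and 9.73 for H-RUN. C1qb read 9.06 in LD, 8.99 in CE, 9.09 in RUN, 9.06 for L-RUN and 9.002 for H-RUN, and C1qc 8.86, 8.74, 8.83, 8.88 and 8.80 in the same order. No library stood highest for all 3 chains. All 3 were lower in CE than in LD (-0.06, -0.07 and -0.12), and all 3 were lower in H-RUN than in L-RUN (-0.04, -0.06 and -0.08), but each of these differences was within 3 technical SD.

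Other surface and secreted proteins of resting microglia were divided. Tmem119, a membrane protein that marks microglia but not blood-derived macrophages, read 8.80 in LD and 8.69 to 8.72 in the others, within 3 technical SD. Selplg, the ligand of P-selectin, read 9.19 in LD, 9.18 in CE, 9.12 in RUN, 9.01 for L-RUN and 9.05 for H-RUN. It was thus near LD in CE and passed 3 technical SD in L-RUN (-0.18) and H-RUN (-0.14). RUN lay above both of the libraries made from its mice, by 0.09 over their mixture, the largest such excess among the 32. The secreted protein Olfml3 differed from LD by -0.05 at most. Aif1, which encodes the actin-binding protein IBA1 used to stain microglia, read 7.57 in LD, 7.59 in CE, 7.58 in RUN, 7.66 for L-RUN and 7.65 for H-RUN. Fcrls, an Fc receptor-like protein typical of mouse microglia, was the gene farthest above LD, with 8.16 in LD, 8.22 in CE, 8.28 in RUN, 8.29 for L-RUN and 8.29 for H-RUN. Its differences of 0.06, 0.12, 0.13 and 0.13 were within 3 technical SD. The 5 genes above LD in all 4 libraries were Fcrls, P2ry6, Aif1, Tyrobp and Cd68.

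Trem2 and its signalling partner Tyrobp (DAP12), which sense lipids and dying cells, stayed near LD. Trem2 read 7.35 in LD, 7.32 in CE, 7.28 in RUN, 7.35 for L-RUN and 7.35 for H-RUN, and Tyrobp 7.73, 7.74, 7.74, 7.82 and 7.74 in the same order. Fcer1g, the adaptor shared by Fc receptors, read between 6.53 (RUN) and 6.64 (L-RUN) around 6.59 in LD. Fcgr3, a low-affinity receptor for IgG, was lower throughout, with 7.31 in LD, 7.20 in CE, 7.20 in RUN, 7.18 for L-RUN and 7.24 for H-RUN, and passed 3 technical SD in L-RUN (-0.13). Siglech, a lectin that pairs with DAP12, read 7.93 in LD and 7.78 in both CE and L-RUN, where it passed 3 technical SD, and 7.85 in RUN and 7.86 in H-RUN. Ly86 (MD-1) is a partner of the Toll-like receptor relative RP105, and Cd33 is a sialic acid-binding receptor. Both were lower than in LD in all 4 libraries, by at most 0.12 and 0.11, within 3 technical SD. Unc93b1, which carries nucleic acid-sensing Toll-like receptors to endosomes, read 7.98 in both LD and CE, 8.02 in RUN and 7.94 in L-RUN and H-RUN.

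The leukocyte surface proteins and the transcription factors were expressed at low to moderate levels. Cd53, a tetraspanin of leukocytes, read 7.72 in LD, 7.59 in CE, 7.56 in RUN, 7.61 for L-RUN and 7.61 for H-RUN, and passed 3 technical SD in RUN (-0.15). Ptprc, which encodes CD45 and is low in microglia, lay between 5.97 and 6.08 in all libraries. Spi1 itself read 5.997 in LD, 6.001 in CE, 6.005 in RUN, 5.98 for L-RUN and 5.96 for H-RUN. These values did not differ beyond 3 technical SD. Irf8, the factor that acts with PU.1, read 6.85 in LD and from 6.75 (RUN) to 6.83 (CE) in the others, also within 3 technical SD.

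Summed over the 33 genes on the linear scale, the level was 14497 in LD, 13564 in CE, 13407 in RUN, 13417 for L-RUN and 13427 for H-RUN, after the rlog values were taken out of the logarithm. The 4 other libraries lay below LD by 6.44%, 7.52%, 7.45% and 7.38%, closer to each other than to LD. A linear sum weighs the abundant genes most, and the 12 genes with a mean of at least 8.5 had the larger median differences. It does not show that all genes fell, since 5 were higher than LD in all 4 libraries. Low and high runners thus differed little in this sum. The median difference over the 33 genes was -0.0061 for H-RUN minus L-RUN and 0.012 for CE minus RUN. Lower were 19 and 13 of the 32 expressed genes, where 48.6% and 49.6% of all expressed genes were. For 13 of the 32 genes the RUN value stood between those of L-RUN and H-RUN, and its departure from their mixture ran from -0.087 (Fcer1g) to 0.091 (Selplg) with a median of -0.0099.

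**Figure D3:**
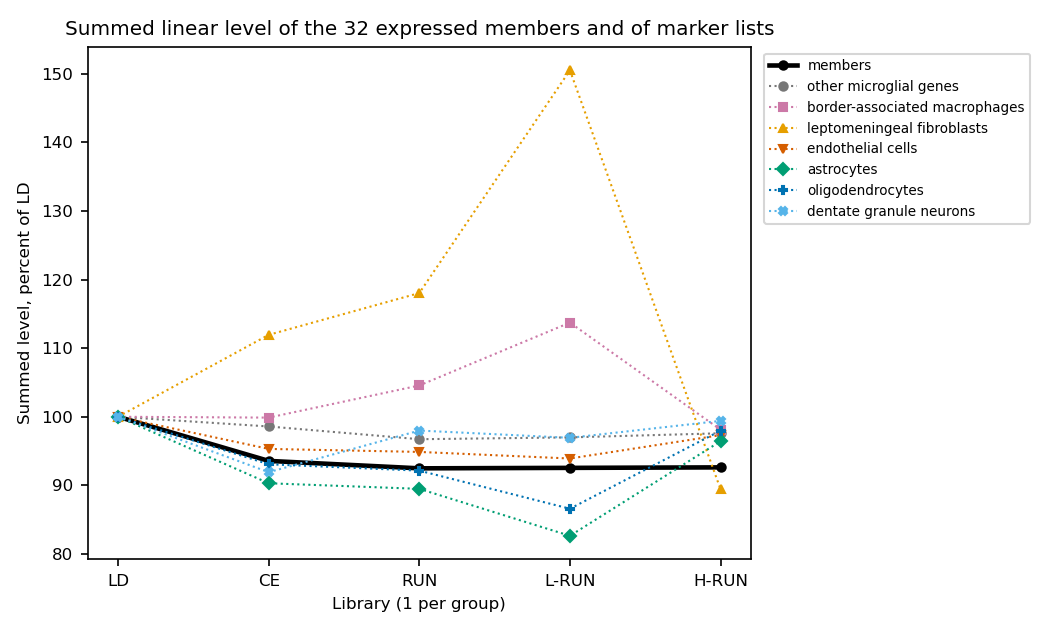
Summed linear level of the myeloid genes (thick line) and of other lists, as a percent of LD (y axis, which does not start at 0). The sum holds all 33 genes with Cd14 included, although the title counts 32. The x axis gives the 5 libraries, 1 library per group, and lines only join the points of a list. The myeloid genes lie at 92.5% to 93.6% of LD in all 4 other libraries, whereas leptomeningeal fibroblast markers reach their highest point and astrocyte markers their lowest in L-RUN.

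A further 42 microglial genes that are not among the 33 were listed, of which 37 were expressed. Of all expressed genes, 50.8% were lower than in LD in CE, 50.7% in RUN, 50.7% for L-RUN and 52% for H-RUN. Of the 37, 25 were lower in CE, 30 in RUN, 28 for L-RUN and 30 for H-RUN, with medians of -0.04 in each. None reached 0.3. Lower by over 3 technical SD were 1, 5, 5 and 4 of the 37, and 1 was higher in each library. The lower genes were 2.7%, 13.5%, 13.5% and 10.8% of the list, where 13%, 14.4%, 19.5% and 10.4% of expressed genes were lower. The higher gene was 2.7% of the list in each library, where 8.39% to 13.2% of expressed genes were higher. Itgb5, an integrin chain, read 10.19 in LD, 10.07 in CE, 10.04 in RUN, 10.08 for L-RUN and 10.01 for H-RUN, where it had the lowest difference of the list (-0.18). Coro1a, an actin-binding coronin that neurons also express, was the gene above 3 technical SD, with 11.21 in LD and 11.35 to 11.40 in the others.

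Of 12 ligands and regulators of microglia, 11 were expressed. Tgfbr1, the receptor chain for TGF-beta, the cytokine on which the microglial program depends, read 10.66 in LD, 10.39 in CE, 10.33 in RUN, 10.39 for L-RUN and 10.24 for H-RUN. Its difference reached 0.3 in RUN (-0.33) and H-RUN (-0.42) and was -0.27 in CE and L-RUN. This gene is also expressed outside microglia. The ligands of CSF1R did not share an order. Csf1 read 9.92 in LD, 9.998 in CE, 9.80 in RUN, 9.86 for L-RUN and 9.73 for H-RUN, while Il34 lay between 9.37 and 9.45. Cx3cl1 (fractalkine), made by neurons, lay between 13.76 (L-RUN) and 13.88. Csf2ra, a chain of the GM-CSF receptor, was the highest of the list in L-RUN (0.15).

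Among genes that microglia switch on around plaques and dying cells, those expressed were more often above LD in L-RUN than below it. In which cells of the tissue the listed genes differed was not tested. Of 20 disease-associated genes 15 were expressed, whereas Cst7, Clec7a, Itgax, Ccl6 and Cd52 were not. The unexpressed genes differed from LD by -0.0443 to 0.0171 in L-RUN, at levels where the rlog shrinks differences. Of the 15, 12 were higher in L-RUN than in LD, against 6676 of the 13550 expressed genes. The median of the 15 was 0.09 there, whereas CE, RUN and H-RUN had medians of 0.02, 0.06 and 0.0025. In L-RUN 7 were higher and 2 lower (Lpl by -0.13 and Axl by -0.13) by over 3 technical SD, where 13.2% and 19.5% of expressed genes were. Gpnmb, a glycoprotein of lysosomes and melanosomes, read 7.85 in LD, 7.80 in CE, 8.17 in RUN, 7.99 for L-RUN and 8.20 for H-RUN, and reached 0.3 in RUN and H-RUN. Lyz2, lysozyme of macrophages, read 6.51 in LD, 6.4996 in CE, 6.64 in RUN, 6.88 for L-RUN and 6.51 for H-RUN, and reached 0.3 in L-RUN alone (0.37). Spp1 (osteopontin) read 5.80 in LD and 5.79 in H-RUN but 6.01 in CE and RUN and 6.02 in L-RUN.

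In the complement list without C1q, 10 of 17 genes were expressed. Serping1, the C1 inhibitor, read 7.56 in LD, 7.60 in CE, 7.76 in RUN, 7.97 for L-RUN and 7.64 for H-RUN. It reached 0.3 in L-RUN (0.41). C4b, which astrocytes and oligodendrocytes also make, was lower in every library, with 9.12 in LD, 9.01 in CE, 8.93 in RUN, 9.07 for L-RUN and 8.85 for H-RUN. Of the bridging molecules and receptors for the engulfment of dying cells, 12 of 15 were expressed, with medians between -0.02 (CE) and -0.08 (H-RUN). Mfge8, a bridge to phosphatidylserine made largely by astrocytes, was 12.07 in LD, 12.21 in CE, 11.85 in RUN, 11.91 for L-RUN and 11.78 for H-RUN. Gas6, a ligand of the TAM receptors, was higher than LD in all 4 (0.23, 0.10, 0.17 and 0.12), and the TAM receptor gene Tyro3, which neurons express, was lower and reached 0.3 in L-RUN (-0.32).

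The signalling lists of inflammation had medians between -0.05 and 0.0050, with most genes lower than LD in CE, RUN and H-RUN. Of 27 Toll-like receptors and cytokines 12 were expressed, and none reached 0.3, with medians from -0.04 (H-RUN) to 0.0050 (L-RUN). Of these, Nfkbia, an inhibitor of NF-kappaB, was highest in L-RUN (8.76, against 8.61 in LD), and Tlr13, a receptor for bacterial ribosomal RNA, was lowest in H-RUN (5.24, against 5.38 in LD). Of 20 genes of the type I interferon response 14 were expressed and none reached 0.3. Of the 14, 10 were lower than LD in CE, 11 in RUN, 7 for L-RUN and 12 for H-RUN. Their medians were -0.03, -0.03, -0.0011 and -0.05. Of the 12 Toll-like receptors and cytokines, 9, 7, 6 and 9 were lower in the same order. Of all expressed genes, 50.7% to 52% were lower than LD in these libraries. Ifit2 read 7.40 in LD and CE, 7.23 in RUN, 7.28 for L-RUN and 7.16 for H-RUN, and Ifitm3 7.20, 7.21, 7.29, 7.38 and 7.16.

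**Figure D4:**
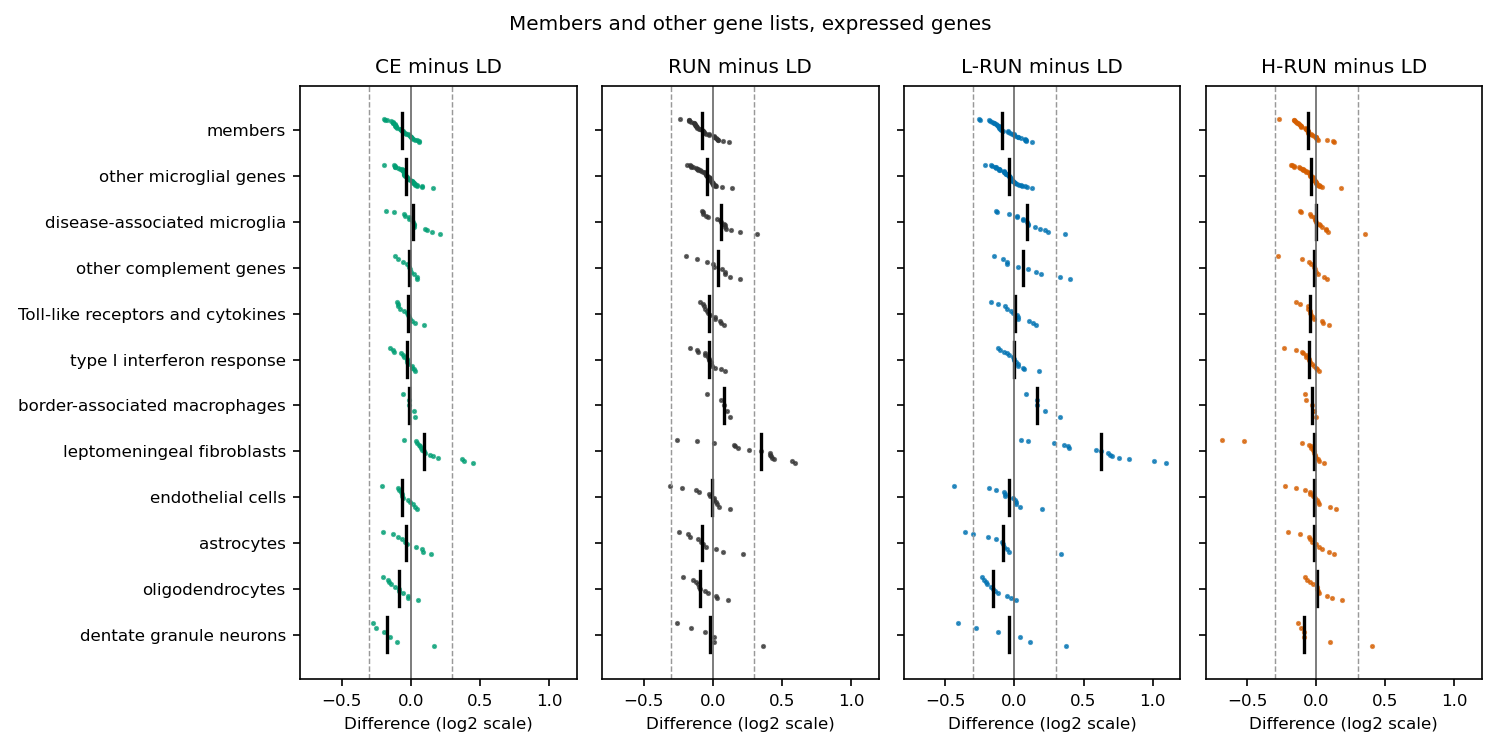
Difference from LD (x axis, log2 scale) of the expressed genes of each list (rows), 1 panel per library, with each point a gene, black bars the median of a list and dashed lines at -0.3 and 0.3. The medians of the 33 genes (top row, 32 expressed) lie between -0.09 and -0.06, and the widest shift is that of the leptomeningeal fibroblast markers in L-RUN (median 0.63).

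Markers of other cells were read from the same libraries. None of 11 neutrophil and monocyte markers and none of 11 lymphocyte markers was expressed, and their summed linear levels were 50.8 to 51.6 and 27.1 to 27.8. None of the 6 erythrocyte markers in the files had a mean rlog value of 5 or more, but the beta-globin gene Beta-s came close at 4.98, with 5.12 in LD and 4.93 to 4.97 in the other libraries. The summed linear level of these markers was 38.5 in LD and 34.3 to 35.2 in the others, and its part in the differences of the 33 genes was not tested. Border-associated macrophages, the myeloid cells of the meninges and vessels, share several of the 33 genes. Of their 12 markers 5 were expressed, with medians of -0.01 in CE, 0.08 in RUN, 0.17 for L-RUN and -0.03 for H-RUN. All 5 were higher in L-RUN than in LD, where 6676 of the 13550 expressed genes were. In H-RUN all 5 were lower, where 52% of expressed genes were, but none by over 3 technical SD. Stab1 differed there by -8.8e-05 only. The unexpressed markers differed from LD by -0.0078 to 0.064 in H-RUN. Mrc1, their mannose receptor, read 5.83 in LD, 5.78 in CE, 5.93 in RUN, 6.05 for L-RUN and 5.76 for H-RUN, and Colec12, a scavenger receptor that fibroblasts and endothelium also express, 7.60, 7.59, 7.68, 7.93 and 7.52. Their summed level ran from 825 (H-RUN) to 956 (L-RUN), and their part in the differences of Lyz2 or the 33 genes was not tested.

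Leptomeningeal fibroblast markers (15 of 17 expressed) had medians of 0.09 in CE, 0.35 in RUN, 0.63 for L-RUN and -0.02 for H-RUN, with a summed level between 3846 in H-RUN and 6474 in L-RUN. Serping1, Lyz2 and the summed level of the macrophage markers were also highest in L-RUN. The sum of the 33 genes was 13417 in L-RUN and 13427 in H-RUN. Whether any of these differences share a cause was not tested. Markers of oligodendrocytes (11, medians -0.09, -0.09, -0.16 and 0.01 in CE, RUN, L-RUN and H-RUN) and astrocytes (10, medians -0.04, -0.08, -0.09 and -0.01) were below LD in CE, RUN and L-RUN as well. Their summed levels ran from 31404 to 36267 and from 92302 to 111688, lowest in L-RUN and highest in LD for both. These sums weigh the most abundant genes most, which were Mbp (14.29 in LD) and Slc1a2 (16.06 in LD). Of the 10 astrocyte markers, 6 were lower than LD in CE, 7 in RUN, 9 for L-RUN and 6 for H-RUN. Gjb6 was higher in L-RUN (0.34). Of all expressed genes, 50.7% to 52% were lower than LD. Endothelial markers (12) had medians from -0.06 to -0.01, and granule neuron markers (6) from -0.17 in CE to -0.02 in RUN. Whether a different share of cell types in the dissected tissue contributed to the differences of the 33 genes was not tested.

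Differences from LD fell with transcript length in all libraries. Across 13426 expressed genes the Spearman correlation of the difference with the length of the transcript was -0.33 in CE, -0.52 in RUN, -0.54 for L-RUN and -0.38 for H-RUN, and across the 32 genes it was -0.27, -0.33, -0.49 and -0.44. The 32 are short, with a median of 2165 nucleotides against 3277. With the trend over all genes removed by a smooth curve, their medians were -0.08 in CE, -0.10 in RUN, -0.09 for L-RUN and -0.08 for H-RUN. Lower than LD in all 4 libraries were then 25 of the 32 (a count added after the data were seen), where 25% of expressed genes were. Ctss reached 0.3 in H-RUN (-0.31) once the trend was removed.

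Outside all lists, the expressed genes whose 5 values followed the mean profile of the 32 most closely, by Euclidean distance after centring, were Pus7 (0.0124), Yars2 (0.0131) and Zfp202 (0.0132). Pus7, a pseudouridine synthase, read 9.88 in LD and 9.81 to 9.83 in the others, an order in which LD stands alone. This likeness is over 5 libraries only.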

How the data were processed

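RNA of the DG was sequenced in 5 libraries of pooled, polyA-selected RNA, 1 per group. Per the labels and the methods of the study, base calls were made with CASAVA 1.8.2, reads were mapped to mm10 with TopHat2 2.0.10 and counted on RefSeq genes with HTSeq, and DESeq2 1.10.1 normalized all libraries at once. The authors deposited regularized log values, on the log2 scale, 1 per gene symbol. The kit kept no strand. Counts were not used here, so depth and counting error are unknown, no model of counts was fitted and the shrinkage could not be undone.

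Differences of these values were taken between libraries. The 33 genes, the other lists and the rules were chosen with earlier results of these data known. Named genes were all 33, the genes of the other lists at 0.3 or with the 2 highest or lowest differences, and the 3 nearest profiles. Il34, Cx3cl1 and the blood markers were added after their values were seen, and some genes of the other lists are not reported here. The technical SD was the robust SD, per decile of expression, of RUN minus log2 of the averaged L-RUN and H-RUN levels, scaled for variances of 1.5 and 2 single libraries. Positions and lengths came from GENCODE M21 (GRCm38), with a length for 99.1% of expressed genes. The trend with length was a lowess curve (fraction 0.3). Alternatives were other cut-offs, centring, quantile normalization, a minimum mean of 7, another baseline, 5 technical SD, restricted lists and the removal of the trend. The scripts were tested on simulated data and ran in python 3.11.15 with pandas 2.3.3, numpy 2.4.6, statsmodels 0.14.6, scipy 1.17.1 and matplotlib 3.10.9.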

Additional observations from a re-analysis of the deposited data

Results flagged for a closer look

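No gene of the 33 differed from LD in opposite directions in L-RUN and H-RUN by over 3 technical SD in both. Among the other lists 5 genes did, and the difference between the 2 effects was not tested, since each group is 1 library. B2m, the light chain of MHC class I, differed from LD by 0.0984 in L-RUN and by -0.1115 in H-RUN. Dcn, a proteoglycan of fibroblasts, differed by 0.2862 and -0.5222, the granule neuron marker Lct by -0.117 and 0.0976, the astrocyte marker S100b by -0.1295 and 0.0928, and Trpc6, a calcium channel, by 0.1161 and -0.1082.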

How the results depend on the processing

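With 1 library per group, a high reading of LD and an effect shared by the other 4 libraries cannot be told apart. No paired analysis was possible because each group has 1 library. The median difference of the 33 genes from LD stayed below 0 under all alternatives run, from -0.09 to -0.06 in CE, -0.12 to -0.04 in RUN, -0.10 to -0.04 in L-RUN and -0.09 to -0.03 in H-RUN. It moved to -0.12 in RUN with the 8 microglia-restricted genes alone and to -0.041 in L-RUN when LD and CE were averaged as baseline. The count at the cut-off became 1 in RUN, 2 for L-RUN and 1 for H-RUN at 0.2, and 1 in H-RUN with the trend with length removed. At 5 technical SD in place of 3, the count became 1 in CE, 2 in each of RUN, L-RUN and H-RUN, and 0 for H-RUN minus L-RUN. The shares of all expressed genes that these alternative cut-offs would call were not counted. Whether these counts are above or below the rate of all genes is therefore unknown. With L-RUN, RUN or CE left out, an alternative chosen after seeing the data, 20, 19 and 17 of the genes were lower than LD in all libraries that remained. Of all expressed genes, 31.8%, 29.5% and 35.2% were, in the same order. The causes were not tested. Of the other values under alternatives, 108 were counted as the same as those reported, though not all were close. Among these, the count lower than LD in all 4 libraries went from 17 to 25 with the trend removed. The median of H-RUN minus L-RUN, -0.0061 as reported, changed sign. It was 0.0051 with quantile normalization and 0.0082 with the trend removed.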
